A study of Ziziphus jujuba with 15 samples.

Results

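In the heat-sensitive jujube cultivar 'HS', 33 of the 29293 annotated genes had means that stood high through 5 d of heat stress and lay near that of 0 d at 7 d. They were chosen on these data by a rule on log2(FPKM + 1), where FPKM is the number of fragments per kilobase of exon scaled to the mapped fragments of the library and a difference of 1 is a 2-fold change of FPKM + 1. The mean over the 3 libraries of a day had to lie 1 or more above that of 0 d at each of 1, 3 and 5 d and within 0.5 of it at 7 d, and the mean FPKM at 0 d had to be below 700. The whole table holds 32876 genes, 3583 of them newly assembled and not considered here. The libraries come from leaves of seedlings of one cultivar, labelled HS-Haoqing1, sampled at 0, 1, 3, 5 and 7 d of heat stress, each day having replicates a, b and c, 15 libraries in all. The seedlings were raised from stem cuttings, heat was given during the light period, and the 0 d plants were unheated. Unheated plants were not among the libraries of later days, so that the effect of heat and that of time in the growth room cannot be told apart. The 7 d libraries carry the heat stress label like those of 1, 3 and 5 d and are not taken from plants that the labels call recovered. The labels also speak of RNA of replicates being pooled, while the methods describe 3 biological replicates, and the p-values below measure only the spread between these libraries.

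Plants meet heat with a fast and broad change of transcription. Heat stress transcription factors switch on chaperones, which hold and refold damaged proteins, while the ubiquitin and proteasome system and proteases remove those that cannot be saved. Regulators of hormone signalling, among them NAC proteins, a large plant family of transcription factors, and enzymes of sugar, lipid and glutathione metabolism take part in the response as well. Transcripts raised by heat may stay high, or fall back while the stress goes on. In whole leaves, fewer cells that express a gene and less of its RNA per cell cannot be told apart.

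The 3 replicates of a day were not equally alike. Over the 19925 genes that reached an FPKM of 1 in 3 or more libraries, replicates b and c of the same day correlated at 0.966 to 0.969, and replicate a with them at 0.927 to 0.946 at 0 to 5 d and at 0.906 to 0.909 at 7 d. Where FPKM was 20 or more in all 3 libraries of a day, b and c differed by a median of 0.065 to 0.082 on the log2 scale, against 0.17 to 0.24 for a and either of them. Sampling noise cannot be computed without counts, and whether b and c are separate samples was not tested. Replicate a at 7 d correlated at 0.926 to 0.934 with the 5 d libraries and at 0.850 to 0.864 with those of 0 d, and b and c at 7 d at 0.890 to 0.912 and 0.882 to 0.887. The counts of genes called are therefore also given without replicate a and with b and c averaged as 1 sample. Leaf markers were in place, since 40 of 45 genes of photosynthesis and the light-harvesting antenna had a mean FPKM of 1 or more at every day. The antenna genes had a median FPKM of 1326 at 0 d and 1681 at 7 d, with 2360, 1008 and 805 at 1, 3 and 5 d between them, and the part of this shift in the results below was not tested. The libraries held 17371 to 18313 genes at 1 FPKM or above, and their depths, as far as the spacing of low values shows it, spanned 0.901 to 1.31 of that of replicate a at 0 d.

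Few of the genes that had been raised had a mean within 0.5 of 0 d at 7 d. Of 768 annotated genes with a difference of 1 or more at 1, 3 and 5 d and a mean FPKM below 700 at 0 d, 561 (73.0%) were still 1 or more above 0 d at 7 d, 174 (22.7%) lay between 0.5 and 1 above it and 33 (4.30%) met the rule, while 0 lay more than 0.5 below it. The share was similar for genes that had been lowered by 1 or more at all 3 days, of which 43 of 1003 (4.29%) were within 0.5 of 0 d at 7 d, and 8 of 102 raised new genes (7.84%) were within it too. The bound at 7 d cuts through a continuum. gene11478 and gene18981 were just inside it, with differences of 0.50 and 0.48, and gene9301 and gene2811 just outside, both with 0.52. At the bound on the rise, gene31706 and gene26298 had lowest differences of 1.00 and 1.01, and gene19819 and gene14402 missed it with 0.99 each. All 33 genes passed the filter on low FPKM.

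**Figure D1:**
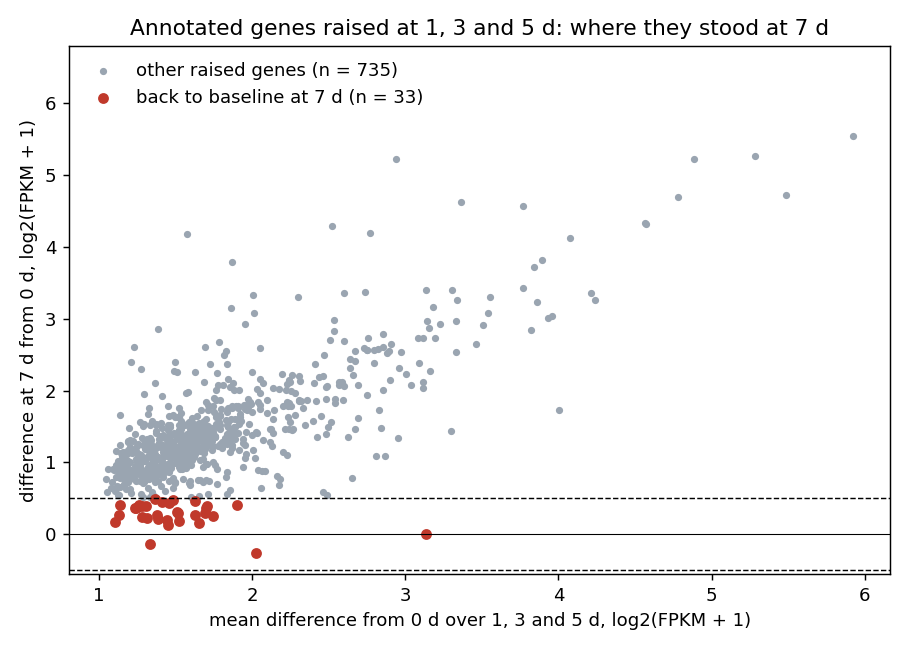
Difference at 7 d from 0 d (y axis) against the mean difference over 1, 3 and 5 d (x axis), both in log2(FPKM + 1), for the 768 annotated genes raised by 1 or more at 1, 3 and 5 d, with the 33 genes of the rule in red and the other 735 in grey. Dashed lines mark 0.5 on either side of 0, most genes sit above the upper line, and the red ones fill the sparse lower edge of the cloud.

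The differences of the 33 genes were moderate, above the floor that the rule sets. gene28293 was listed at 0 in every 0 d library, so that its differences have no fixed size, and it is left out of the ranges but not of the medians. The other 32 differed from 0 d by 1.02 to 2.52 at 1 d, by 1.03 to 2.14 at 3 d and by 1.00 to 2.47 at 5 d. The medians over the 33 were 1.42, 1.38 and 1.53, where the 768 raised genes had medians of 1.39, 1.63 and 1.70 and all genes tested 0.04, 0.12 and 0.10. At 7 d the differences ran from -0.27 to 0.50 with a median of 0.30, against 1.26 for the raised genes and 0.04 for all genes tested. Of the 33, 30 were still above 0 d in the mean at 7 d, gene25319 and gene26298 were below it, and gene28293 was listed at 0 in every library of both days. Most were genes of low to middle level, with 6 below 1 FPKM at 0 d, 19 from 1 to 10, 6 from 10 to 50 and 2 at 50 or more. For genes near or below 1 FPKM the 1 added to FPKM makes differences smaller than they are in FPKM. The bound at 7 d was therefore looser for such genes. The replicates of the 33 scattered more than those of the raised genes as a whole, with a median SD of 0.44 against 0.27 at 3 d, 0.37 against 0.21 at 5 d and 0.41 against 0.29 at 7 d, all in log2(FPKM + 1).

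**Figure D2:**
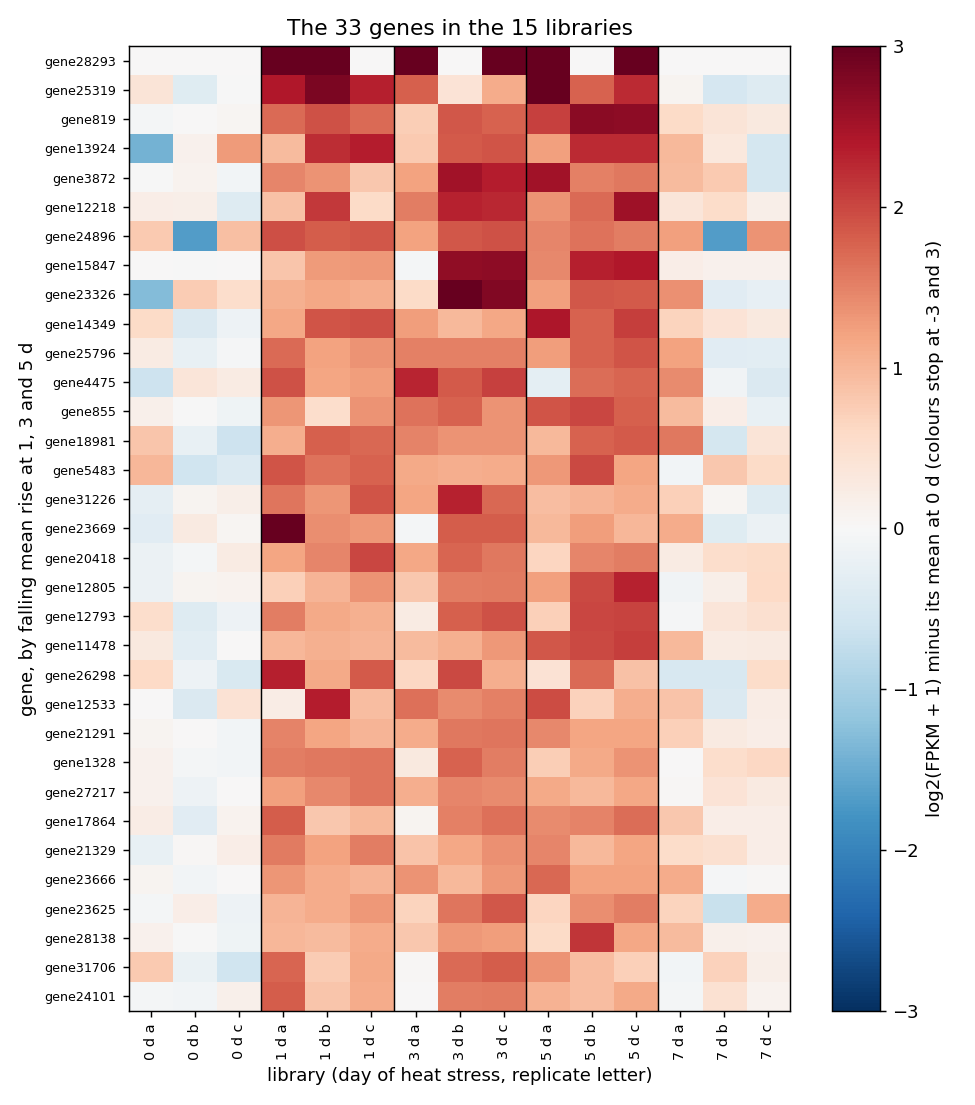
Log2(FPKM + 1) minus its mean at 0 d for the 33 genes (rows) in the 15 libraries (columns, by day and replicate letter), with red above and blue below the 0 d mean. The 9 columns of 1, 3 and 5 d are mostly red and those of 0 and 7 d mostly pale, except that replicate a at 3 d is pale in several rows and replicate a at 7 d is red in several.

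In the limma fit a gene was called where its adjusted p (Benjamini-Hochberg) was at most 0.01 and its change at least 2-fold. Against 0 d, 15 of the 33 genes were called higher at 1 d, 15 at 3 d and 18 after 5 d. Among all genes tested 4.49%, 7.53% and 9.28% were called higher at these days, and because the rule chose the genes on the same differences nothing is read from the counts. Called at all 3 days were 10 genes, namely gene11478, gene14349, gene20418, gene21291, gene21329, gene23666, gene25796, gene27217, gene819 and gene855, and 12 were called at none. At 7 d against 0 d no gene of the 33 could be called, since the rule held all of them within 0.5 and a call needed a 2-fold change. In the same comparison 4.14% of all genes were called higher and 4.88% lower. Of the 33, 3 (gene11478, gene21291 and gene21329) had a limma p of at most 0.05 before adjustment, against 43.3% of all genes tested. The rule also kept these differences small, so that nothing is read from this count. Called lower at 7 d than at 5 d were 6 genes (gene25319, gene819, gene14349, gene855, gene12805 and gene11478), against 0.296% of all genes tested. The rule itself placed the 7 d mean below the 5 d mean in all of the 33. Nothing is read from this count, or from the counts for 7 d against 5 d in the fits below. With b and c averaged as 1 sample, 0, 0, 4, 0 and 0 of the 33 were called in these 5 comparisons, where 0.341%, 1.63% and 3.66% of all genes were called higher at 1, 3 and 5 d, 0.186% higher and 0.176% lower at 7 d against 0 d, and 0.0% either way at 7 d against 5 d. Without replicate a 19, 26 and 22 of the 33 were called higher at 1, 3 and 5 d, and 6.44%, 10.7% and 11.4% of all genes. In the same fit gene5483 was called higher at 7 d than at 0 d and 18 genes lower at 7 d than at 5 d, where 6.38% and 3.99% of all genes were called in these directions. The counts also rest on b and c, and the share of all genes called in the fits that follow is not given. Nothing particular to the 33 is read from those fits. Without replicate b or c 0 genes were called at 1 d and at 3 d and 3 or 4 at 5 d against 0 d, and without replicate b of 0 d 9 were called at 1 d and 9 at 3 d, as also without replicate c of 3 d at 3 d. The 6 genes lower at 7 d than at 5 d became 0 without b or c of either day, 2 without replicate c of 0 d or of 1 d, and 3 without replicate b of 0 d or without b or c of 3 d.

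A mean within 0.5 of 0 d does not place a gene at its starting level. The 95% limma intervals of the 7 d difference reached 0.32 to 3.36 to either side, with a median of 0.81. Of the 33, 30 included 0, but 0 lay wholly within 0.5 of it, 11 within 1, and 20 reached a difference of 1 or more. The interval of gene27217 was the narrowest, at -0.08 to 0.55, and that of gene28293, listed at 0 at both days, the widest, at -3.36 to 3.36. The 3 intervals that left out 0 were those of gene11478 (0.08 to 0.91), gene21291 (0.01 to 0.77) and gene21329 (0.03 to 0.79), each above it.

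**Figure D3:**
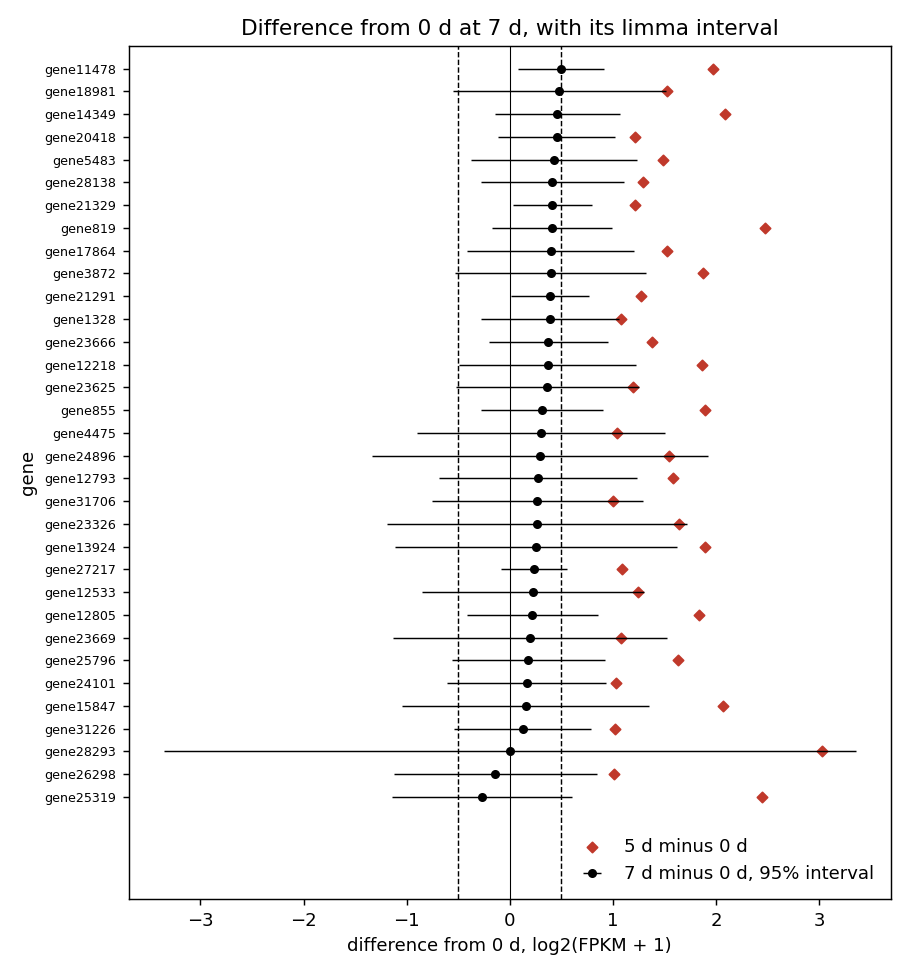
Difference of each of the 33 genes from 0 d in log2(FPKM + 1), at 7 d (black points, with bars for the 95% limma interval) and at 5 d (red diamonds), with dashed lines 0.5 on either side of 0. The points lie inside the lines by the rule, from -0.27 to 0.50, and every bar crosses at least 1 of the lines.

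Library by library, a smaller number of genes kept 1, 3 and 5 d apart from 0 d, or from 0 and 7 d. In 21 of the 33 (63.6%) all 9 libraries of 1, 3 and 5 d were above all 3 of 0 d. This held for 18.8% of the genes tested and for 89.1% of the 768 raised genes, a larger share than among the 33. In 12 they were above all 6 libraries of 0 and 7 d, which held for 1.63% of the genes tested and 8.59% of the raised ones. The 12 were gene12218, gene12805, gene14349, gene20418, gene21291, gene21329, gene25319, gene25796, gene27217, gene31226, gene5483 and gene819. These counts follow in part from the rule and are descriptions. All 3 libraries of 7 d were above all 3 of 0 d in 5 genes (gene15847, gene20418, gene21291, gene28138 and gene819), against 24.8% of the genes tested, and below them in 0, against 22.2%.

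Among regulators, gene14349 (LOC107422350) is annotated as a NAC domain-containing protein, of the family named above. In the order a, b and c, here and below, gene14349 stood at 1.87, 0.417 and 0.722 FPKM at 0 d, 3.3, 6.12 and 6.33 at 1 d, 3.55, 2.78 and 3.29 at 3 d, 9.2, 5.5 and 7.05 at 5 d, and then 2.06, 1.56 and 1.34 at 7 d. All 9 libraries of 1, 3 and 5 d were above those of 0 and 7 d, and replicate a was the highest of its day at 0, 3, 5 and 7 d. The differences from 0 d were 1.67, 1.13 and 2.08 at 1, 3 and 5 d and 0.46 at 7 d. The study's own table of transcription factors, which it drew up on these samples among others, has 82 genes that could be tested. Of these, 14 were raised at 1, 3 and 5 d and 12 of the 14 were still 1 or more above 0 d at 7 d, with gene14349 the 1 that met the rule. gene12805 stood at 4.28, 5.26 and 5.38 FPKM at 0 d, 8.78, 11.2 and 14.2 at 1 d, 9.4, 16.3 and 16.5 at 3 d, 12.9, 22.5 and 28.3 at 5 d, and then 4.5, 5.67 and 8.04 at 7 d. It is listed under the circadian rhythm of plants, without a product name. All 9 libraries of 1, 3 and 5 d exceeded those of 0 and 7 d, and replicate a was the lowest of the 3 at every day. The circadian list has 17 genes tested, of which 3 were raised at all 3 days. Called higher were 2, 5 and 4 of them and lower 4, 6 and 7 at 1, 3 and 5 d. The shares of all genes tested were 4.49%, 7.53% and 9.28% higher and 5.68%, 6.39% and 8.79% lower at these days. The list holds genes that the study had called, and nothing particular to it is read from the counts.

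Genes of protein quality control include gene11478 (LOC107419194), annotated as a protein with a LON peptidase N-terminal domain and a RING finger, the latter a fold found in many ubiquitin ligases. gene11478 stood at 12.6, 7.93 and 10.1 FPKM at 0 d, 20.9, 21.95 and 21.3 at 1 d, 20.5, 22.1 and 26.3 at 3 d, 39.4, 42.6 and 45.4 at 5 d, and then 20.7, 12.1 and 12.4 at 7 d. The 3 libraries of 5 d were above all others, and replicate a of 7 d lay among the values of 1 and 3 d while b and c were within those of 0 d. Its differences from 0 d were 1.02, 1.11 and 1.97 at 1, 3 and 5 d and 0.50 at 7 d. gene1328 had 11.2, 9.73 and 9.58 FPKM at 0 d, 31.5, 32.5 and 32.9 at 1 d, 12.7, 37.1 and 31.2 at 3 d, 17.5, 23.4 and 27.6 at 5 d, and then 10.2, 15.1 and 16.3 at 7 d. gene1328 is listed under protein folding, the work of chaperones. At 1 d its replicates were close together, at 3 d replicate a stayed near the 0 d values, and at 7 d replicate a was among the 0 d values with b and c above them. Of 48 protein folding genes tested, 16, 24 and 32 were called higher and 4, 3 and 5 lower at 1, 3 and 5 d, 13 were called higher and 2 lower at 7 d, and 20 of the 23 raised at all 3 days were still 1 or more above 0 d at 7 d. No gene listed under the response to heat met the rule, with 15 of 40 tested raised at all 3 days and 13 of the 15 still 1 or more above 0 d at 7 d. The same held for heat acclimation, with 5 of 8 tested raised and all 5 still high, for protein processing in the endoplasmic reticulum, with 23 of 66 raised and 22 still high, and for the response to hydrogen peroxide, with 10 of 23 raised and 9 still high. Among all 768 raised genes 4.30% met the rule and 73.0% were still 1 or more above 0 d. Nothing particular to these lists is read from the counts. They hold genes that the study called on these and other libraries, are shortened in part, and are no independent evidence of a direction.

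In carbohydrate metabolism, gene819 is listed under starch and sucrose metabolism and gene15847 under carbohydrate metabolic process. gene819 stood at 0.349, 0.43 and 0.464 FPKM at 0 d, 3.56, 4.34 and 3.63 at 1 d, 1.38, 4.11 and 3.82 at 3 d, 4.82, 8.18 and 8.03 at 5 d, and then 1.09, 0.836 and 0.719 at 7 d. Its 5 d libraries were the highest, all 9 libraries of 1, 3 and 5 d were above the 6 others, and replicate a of 3 d was the lowest of those 9. It differed from 0 d by 1.77, 1.46 and 2.47 at 1, 3 and 5 d and 0.41 at 7 d. The 7 d difference is small only on the scale of log2(FPKM + 1). In FPKM the mean of gene819 was 0.414 at 0 d and 0.883 at 7 d, with every 7 d library above every 0 d library. gene15847 stood at 9.91, 9.83 and 9.96 FPKM at 0 d, 18.3, 25.3 and 26.04 at 1 d, 9.52, 68.3 and 69.3 at 3 d, 28.8, 54.2 and 56.8 at 5 d, and then 11.5, 10.8 and 11.0 at 7 d. The 0 d and 7 d libraries lay within a narrow band, with those of 7 d just above those of 0 d, whereas replicate a at 3 d was below every 0 d library and b and c of that day were the highest of all. Of the 78 genes in the study's list for starch and sucrose metabolism that were tested, 9, 12 and 12 were called higher and 18, 18 and 27 lower at 1, 3 and 5 d. Among all genes tested 4.49%, 7.53% and 9.28% were called higher and 5.68%, 6.39% and 8.79% lower at these days. The list holds genes that the study had called. gene24101 stood at 9.47, 9.27 and 11.1 FPKM at 0 d, 37.7, 18.5 and 22.5 at 1 d, 10.0, 30.6 and 31.2 at 3 d, 21.6, 19.7 and 22.8 at 5 d, and then 9.4, 13.9 and 10.8 at 7 d. It is listed under responses to fructose and sucrose, and its replicate a stood within the 0 d values at 3 and 7 d and above b and c at 1 d.

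In lipid, amino acid and redox metabolism 3 genes met the rule. gene21329 stood at 8.37, 10.2 and 11.6 FPKM at 0 d, 31.4, 24.4 and 31.0 at 1 d, 19.0, 23.6 and 27.4 at 3 d, 29.2, 20.7 and 24.1 at 5 d, and then 15.1, 14.4 and 11.6 at 7 d. gene21329 is listed under glutathione metabolism, which keeps the cell's main soluble thiol reduced and detoxifies reactive compounds, and under arachidonic acid metabolism. Its libraries of 1, 3 and 5 d were all above those of 0 and 7 d, and 2 of the 3 libraries of 7 d were above every library of 0 d. Of the 32 glutathione genes tested 2, 2 and 3 were called higher and 5, 7 and 9 lower at 1, 3 and 5 d. The shares of all genes tested were 4.49%, 7.53% and 9.28% higher and 5.68%, 6.39% and 8.79% lower. This list too holds genes that the study had called, and nothing particular to it is read from the counts. gene12793 stood at 19.3, 9.81 and 11.6 FPKM at 0 d, 39.8, 29.7 and 28.2 at 1 d, 15.6, 47.5 and 52.0 at 3 d, 21.9, 55.7 and 56.2 at 5 d, and then 12.7, 17.2 and 18.5 at 7 d. gene12793 is listed under the synthesis of amino acids, the branched-chain ones among them, and its replicate a stood below its 0 d value at 3 d and slightly above it at 5 d, while b and c were higher at 1, 3 and 5 d than at 0 and 7 d. gene24896 was listed at 4.54, 0 and 4.98 FPKM at 0 d, 11.2, 10.3 and 10.7 at 1 d, 6.43, 10.7 and 11.1 at 3 d, 7.92, 8.94 and 8.32 at 5 d, and then 6.48, 0 and 7.16 at 7 d. gene24896, listed under several lipid pathways, was at 0 in replicate b of 0 and 7 d, and its replicates a and c of 7 d overlapped with 3 d, where a was lower than both. The cause of these zeros was not tested.

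In the handling of RNA and translation, gene28138 is listed under the ribosome and gene12533 under RNA transport. gene28138 stood at 25.8, 23.4 and 21.6 FPKM at 0 d, 48.0, 46.1 and 52.0 at 1 d, 42.3, 59.2 and 57.5 at 3 d, 35.5, 107 and 53.8 at 5 d, and then 46.6, 26.3 and 25.96 at 7 d. Replicate b at 5 d was the highest, and replicate a at 7 d lay near the 1 d values while b and c were just above those of 0 d. gene12533 stood at 0.834, 0.351 and 1.46 FPKM at 0 d, 1.12, 8.34 and 2.49 at 1 d, 4.73, 3.85 and 4.22 at 3 d, 6.06, 1.97 and 2.87 at 5 d, and then 2.31, 0.363 and 1.14 at 7 d. Its groups overlapped, with replicate a at 1 d below replicate c at 0 d. Of 40 ribosome genes tested 1, 9 and 15 were called higher and 8, 10 and 4 lower at 1, 3 and 5 d, and of 31 RNA transport genes 5, 12 and 13 were called higher and 2 lower at each of these days. The shares of all genes tested were 4.49%, 7.53% and 9.28% higher and 5.68%, 6.39% and 8.79% lower. These lists hold genes that the study had called, and nothing particular to them is read from the counts. gene3872 measured 1.06, 1.22 and 0.959 FPKM at 0 d, 4.74, 4.3 and 2.66 at 1 d, 3.77, 10.9 and 9.67 at 3 d, 10.9, 4.88 and 5.25 at 5 d, and then 3.00, 2.55 and 0.429 at 7 d. gene3872 is listed under the response to hypoxia, and its 0 d libraries were close together while those of 7 d spread on both sides of them, replicate a of 7 d being above replicate c of 1 d. Of the 8 hypoxia genes tested, 3 were raised at all 3 days and 1 was still 1 or more above 0 d at 7 d.

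**Figure D4:**
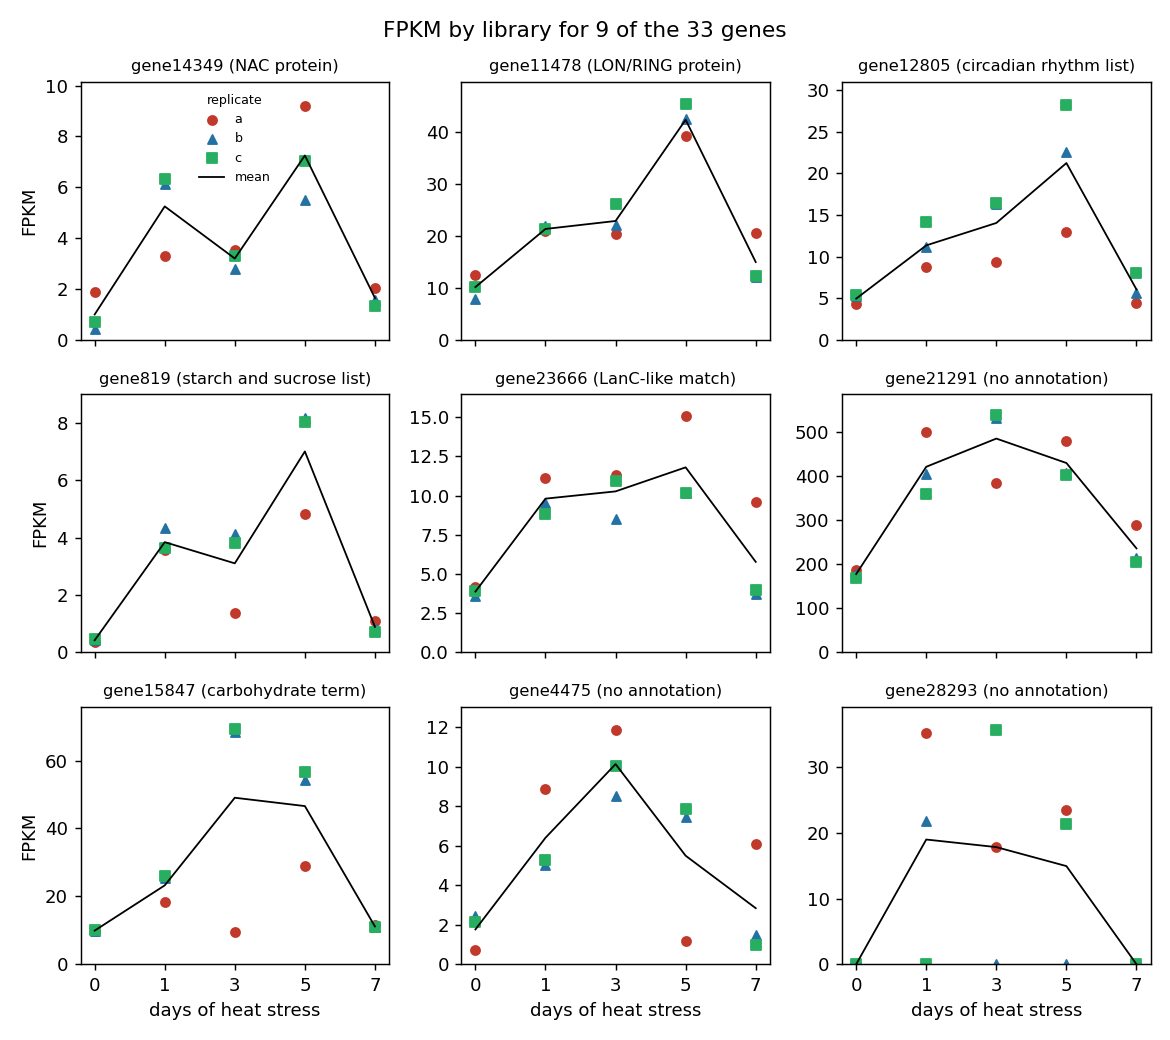
FPKM in each of the 15 libraries (points, replicate a red circles, b blue triangles, c green squares) and the mean of each day (line) for 9 of the 33 genes, by day of heat stress. The days are drawn at equal steps and each panel has its own scale from 0. In gene21291 the values of 1, 3 and 5 d overlap each other and lie above those of 7 d, which lie above those of 0 d. Replicate a of gene15847 at 3 d lies at the 0 d level, replicate a of gene4475 and gene23666 stays high at 7 d, and gene28293 switches between 0 and 17.9 to 35.6 FPKM.

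Other genes with a name carry less of a description. gene23666 stood at 4.14, 3.56 and 3.9 FPKM at 0 d, 11.1, 9.5 and 8.79 at 1 d, 11.3, 8.52 and 11.0 at 3 d, 15.1, 10.1 and 10.2 at 5 d, and then 9.59, 3.75 and 3.97 at 7 d. The product name of gene23666 (LOC107432448) is that of a hypothetical protein, and the study's domain and Swiss-Prot columns match it to the lanthionine synthetase C-like family and to a LanC-like protein of Arabidopsis. Replicates b and c at 7 d were among the 0 d values, and replicate a at 7 d was among those of 1, 3 and 5 d. gene23326 stood at 6.1, 28.9 and 24.3 FPKM at 0 d, 35.7, 38.1 and 36.5 at 1 d, 25.2, 144 and 120.0 at 3 d, 40.0, 63.1 and 61.2 at 5 d, and then 44.6, 12.9 and 13.7 at 7 d. gene23326 (LOC107432012) is annotated as an uncharacterized protein, and its replicate a was low at 0 d and higher than b and c at 7 d, so that a was higher and b and c were lower at 7 d than at 0 d. gene12218 stood at 4.42, 4.33 and 2.58 FPKM at 0 d, 7.65, 19.5 and 6.03 at 1 d, 12.6, 22.4 and 21.6 at 3 d, 10.9, 14.2 and 26.4 at 5 d, and then 5.01, 5.92 and 4.33 at 7 d. gene12218 (LOC107420000), annotated as a hypothetical protein, had overlapping values at 0 and 7 d, all below those of 1, 3 and 5 d. gene23625 stood at 8.11, 9.89 and 7.44 FPKM at 0 d, 18.1, 19.5 and 22.1 at 1 d, 13.9, 27.9 and 33.1 at 3 d, 13.7, 23.9 and 26.2 at 5 d, and then 13.9, 4.92 and 19.2 at 7 d. gene23625 (LOC107432392), also hypothetical, had 7 d libraries both below all of 0 d and within those of 1 d.

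Of the 33 genes 17 had a product name or a listed function, and among the 16 with neither, gene21291 was the most abundant. gene21291 stood at 187, 178 and 169 FPKM at 0 d, 501, 406 and 359 at 1 d, 385, 533 and 540.1 at 3 d, 481, 408 and 403 at 5 d, and then 289.8, 214 and 205 at 7 d. Its replicates were close, its libraries of 1, 3 and 5 d were all above the rest, and those of 7 d were above those of 0 d without overlap. The differences from 0 d were 1.23, 1.43 and 1.27 at 1, 3 and 5 d and 0.39 at 7 d. gene13924 stood at 16.7, 50.5 and 114 FPKM at 0 d, 90.0, 219 and 238 at 1 d, 79.7, 168 and 172 at 3 d, 109, 221 and 219.7 at 5 d, and then 90.6, 57.9 and 31.6 at 7 d. gene13924 had its 7 d values inside the wide range of 0 d, with replicate a lowest of the 3 at 0 d and highest at 7 d, and replicate c of 0 d exceeded replicate a of 1, 3 and 5 d. gene25319 stood at 0.918, 0.144 and 0.454 FPKM at 0 d, 6.75, 9.45 and 6.43 at 1 d, 4.12, 0.961 and 2.2 at 3 d, 13.7, 4.02 and 5.95 at 5 d, and then 0.558, 0.0409 and 0.132 at 7 d. gene25319 had the lowest 7 d difference of the 33, and replicate b at 3 d lay only just above the highest value at 0 d. gene855 stood at 9.24, 8.25 and 7.43 FPKM at 0 d, 22.1, 12.4 and 22.5 at 1 d, 27.5, 30.9 and 22.8 at 3 d, 33.3, 36.0 and 31.1 at 5 d, and then 16.9, 9.71 and 6.94 at 7 d. gene855 was ordered by day up to 5 d in its means, and replicate a at 7 d was among the 1 d values.

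gene28293 headed the list by mean rise, but its values switched between 0 and a level. gene28293 was listed at 0, 0 and 0 FPKM at 0 d, 35.2, 21.8 and 0 at 1 d, 17.9, 0 and 35.6 at 3 d, 23.5, 0 and 21.3 at 5 d, and then 0, 0 and 0 at 7 d. It was listed at 0 in all 6 libraries of 0 and 7 d and also in 1 library of each of 1, 3 and 5 d. Its differences against these days depend on the pseudocount, and a 0 in a table of FPKM may be a failed estimate. The remaining genes, gene25796, gene4475, gene18981, gene5483, gene31226, gene23669, gene20418, gene26298, gene27217, gene17864 and gene31706, are not annotated either. gene27217 stood at 8.42, 6.65 and 7.67 FPKM at 0 d, 19.0, 22.4 and 25.1 at 1 d, 17.1, 22.6 and 21.8 at 3 d, 17.9, 15.9 and 17.98 at 5 d, and then 7.72, 10.3 and 9.34 at 7 d. It had the narrowest limma interval of the 33, and its 3 libraries of 7 d overlapped with those of 0 d. gene20418 stood at 6.46, 7.07 and 9.05 FPKM at 0 d, 18.2, 22.2 and 32.7 at 1 d, 17.8, 27.5 and 24.2 at 3 d, 12.2, 22.2 and 23.6 at 5 d, and then 9.1, 11.2 and 11.7 at 7 d. In this gene every 7 d library was above every 0 d library and below every one of 1, 3 and 5 d.

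At 7 d replicate a differed from b and c in a part of the 33 genes. At 7 d replicate a lay 1 or more above both b and c in 6 genes (gene18981, gene23326, gene23666, gene23669, gene25796 and gene4475), where this held for 3.18% of all genes tested and 13.7% of the raised ones. In 5 genes (gene13924, gene23326, gene23666, gene23669 and gene4475) it was 1 or more above replicate a of 0 d, as in 11.1% of all genes tested and 72.3% of the raised ones. gene4475 stood at 0.718, 2.42 and 2.15 FPKM at 0 d, 8.9, 5.02 and 5.3 at 1 d, 11.9, 8.52 and 10.0 at 3 d, 1.16, 7.44 and 7.89 at 5 d, and then 6.08, 1.48 and 0.966 at 7 d. Here b and c of 7 d were at or below their 0 d values, while a was high at 7 d and low at 5 d. At 3 d replicate a lay 1 or more below both b and c in 11 of the 33 genes, against 10.5% of the raised genes and 3.53% of all tested. Without replicate a of 3 d, 40 genes met the rule, 32 of them among the 33, and without replicate a of 7 d 55 did, 30 of them among the 33. Without any replicate a 74 genes met the rule, but only 18 of the 33 were among them.

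The course was also read in each replicate letter by itself, although the labels do not say that the letters pair the libraries. Of the 33 genes 10, 20 and 20 had differences of 1 or more at 1, 3 and 5 d in letters a, b and c, 11, 19 and 20 were within 0.5 of 0 d at 7 d, and 2, 11 and 11 were both. The median 7 d difference was 0.63 in a, 0.20 in b and 0.23 in c. From b and c together 18 of the 33 met the rule, from a alone gene25319 and gene28293 did, and gene28293 was the 1 gene that met it in both. The rule was then applied to 2 letters and the letter left out was read, as a description. Chosen on b and c, 74 genes met the rule, of which 17 (23.0%) were raised at all 3 days in a, 18 (24.3%) were within 0.5 of 0 d at 7 d and 1 did both. At 7 d 29 of the 74 were still 1 or more above 0 d in a, as were 6 of the 36 and 5 of the 39 genes below in b and c. Of all annotated genes 3.08% were raised at all 3 days in a, 2.92% in b and 3.01% in c. That base includes genes too low for the filter on FPKM, and the same share among raised genes is not given. Raised genes in general, 810 by b and c, were within 0.5 at 7 d in a in 12.0% of cases. Chosen without b, 36 genes were read in b, where 13 (36.1%) were raised, 22 (61.1%) were within 0.5 at 7 d and 5 did both. Among raised genes 13.5% were within 0.5 at 7 d in b. Chosen without c, 39 genes were read in c, where 14 (35.9%) were raised, 19 (48.7%) were within 0.5 at 7 d and 7 did both. Among raised genes 14.7% were within 0.5 at 7 d in c. The median 7 d difference of the chosen genes in the letter left out was 0.75 in a, 0.24 in b and 0.24 in c, and for raised genes 1.21, 1.10 and 1.04. The letter left out of b or c has its close partner among those used, and its share in these figures was not tested.

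The rule set a floor under each of 1, 3 and 5 d but no bound on the differences among them. Since the same values chose the genes, the calls among these days are given as a description. None of the 33 genes was called between 1 and 3 d, 3 and 5 d or 1 and 5 d, in either direction, by the same limma criteria. Among all genes tested, 0.12% were called higher and 0.1% lower at 3 d than at 1 d, 0.11% and 0.0703% at 5 d than at 3 d, and 0.773% and 0.627% at 5 d than at 1 d. At a limma p of at most 0.05 before adjustment 1, 5 and 5 of the 33 differed, against 19.6%, 15.4% and 27.2% of all genes tested. These were gene25319 at 3 d against 1 d, gene25319, gene819, gene14349, gene31226 and gene11478 at 5 d against 3 d, and gene819, gene855, gene12805, gene11478 and gene27217 at 5 d against 1 d. The 33 differences between 5 and 1 d ran from -0.99 in gene23669 to 0.95 in gene11478, 18 above and 15 below 0, with a median of 0.04 against 0.07 for all genes tested. Their 95% intervals reached a median of 0.81 to either side. Without replicate a, gene15847 and gene23326 were called higher and gene25319 lower at 3 d than at 1 d, gene23326 lower at 5 d than at 3 d and gene15847 higher at 5 d than at 1 d, where 2.66%, 2.23%, 2.89% and 3.54% of all genes were called in these directions. With b and c averaged as 1 sample none of the 33 was called in these comparisons, nor was any other gene (0.0% in each direction).

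The day of the highest mean differed among the 33 genes. It was 1 d in 13 (39.4%), 3 d in 8 (24.2%) and 5 d in 12 (36.4%), where the 768 raised genes had 112 (14.6%), 244 (31.8%) and 412 (53.6%). No test was made of this difference, since the members were chosen with the later days in view. In the fit of all 15 libraries none of the 33 was called between 1, 3 and 5 d. The 95% intervals of these differences reached a median of 0.81 to either side. The day of the highest mean of a gene is therefore uncertain. The means are those of log2(FPKM + 1). Among the genes given library by library above, gene1328, gene24101, gene21329, gene24896, gene27217, gene20418, gene25319 and gene28293 were highest at 1 d. Those highest at 5 d were gene11478, gene14349, gene12805, gene819, gene15847, gene855, gene23666, gene12793, gene28138 and gene13924.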

How the data were processed

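RNA-seq of leaves from cultivar 'HS' was analysed for 15 libraries, 3 at each of 0, 1, 3, 5 and 7 d of heat stress. The authors trimmed the reads (Trimmomatic 0.36 and FastQC, per the submitters' processing notes) and mapped them to the jujube genome from NCBI (Bowtie 2, TopHat 2). Transcripts were assembled by Cufflinks, and the values deposited are FPKM. The genome build and the mapper versions are not given in the sources used here. The labels and the methods name different extraction kits and instruments, and the 7 d libraries appear in the labels only.

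FPKM hold no counts, and low values were whole multiples of a step (within 0.02 of it) in 8.97% to 14.3% of cases, so no count test was run, and the precision comes from the spread between replicates. Values were taken as log2(FPKM + 1). The 19925 genes that reached 1 FPKM in 3 libraries were fitted with limma 3.58.1 in R 4.3.3 (day as the only term, eBayes with an intensity trend) over all 15 libraries, and called where the adjusted p was at most 0.01 and the change at least 2-fold. Comparisons with 0 d, and of 7 d with 5 d, share libraries and were used by the rule. In simulated data of 19925 genes, 200 were shifted at 5 d by a log2 value of 2. The comparison of 5 d with 1 d called 182 (91.0%) of these and 2 others. The genes of the rule differed by -0.99 to 0.95 between 5 d and 1 d, less than the simulated shift. The simulation therefore does not tell how often differences of their size would be called. Tables and plots were made in Python 3.11.15 with pandas 2.3.3, numpy 2.4.6 and matplotlib 3.10.9.

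The members, lists and rules were chosen with earlier results of these data known. The text names the 10 genes of largest mean rise, the 10 of highest mean FPKM over 1, 3 and 5 d, those with an annotation, and those nearest to the bounds; others were named after their values were seen. Annotation came from the study's supplementary tables, which list genes called in the study, and 5 of 6 LOC names were found in the RefSeq table of assembly ASM3175591v1. Its coordinates were not used, and promoters and proteins were not analysed here. Of 35 lists searched, 9 held a member. Alternatives were a pseudocount of 0.1, no filter, median-of-ratios and quantile scaling, an adjusted p of 0.05, a replicate block, other bounds, and fits without a replicate letter or a library. Fits with b and c averaged and fits without 7 d were added after seeing the data.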

Additional observations from a re-analysis of the deposited data

How the results depend on the processing

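The number of genes meeting the rule was 33. It was 93 with a pseudocount of 0.1 (26 shared with the 33), 10 with a band of 0.25 at 7 d, 3 with a rise of 1.5, 25 and 31 with median-of-ratios and quantile scaling (22 and 25 shared), and 26 with b and c averaged (14 shared). It ran from 30 to 74 when a letter or a library was left out, 74 without replicate a and 55 without replicate a of 7 d. At an adjusted p of 0.05 limma called 26 of the 33 at 1 d, 28 at 3 d and 25 at 5 d against 0 d, in place of 15, 15 and 18. No share of all genes called is given for this threshold, nor for the fits without the filter, with a block or without a library. Nothing particular to the 33 is read from these counts. Without the filter on low FPKM 2 of the 33 were called at 7 d against 5 d, in place of 6. With b and c averaged, added after seeing the data, 0 were called at 1 d, 0 at 3 d and 4 at 5 d against 0 d, and 0 at 7 d against 5 d.

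With a letter or a library left out, the calls ran from 0 to 19 at 1 d, 0 to 26 at 3 d, 3 to 22 at 5 d and 0 to 1 at 7 d against 0 d, and from 0 to 18 at 7 d against 5 d. The lowest of these counts at 1, 3 and 5 d came without replicate b (0, 0 and 3) or c (0, 0 and 4). The call of a gene at 7 d against 0 d and the 18 came without replicate a. Among 1, 3 and 5 d they ran from 0 to 2 higher and 0 to 1 lower at 3 d against 1 d, 0 to 1 lower at 5 d against 3 d and 0 to 1 higher at 5 d against 1 d. At 7 d against 5 d, 0 were called without b or c of 5 or 7 d.

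The labels do not say whether the letters pair the libraries, and the values here do not settle it. Deviations of libraries with the same letter correlated at -0.10 to 0.12, with 1 of 30 pairs over 0.1. In 31 of 60 cases a library's best match among the 3 of another day had its own letter. With the replicate block the calls were 15, 15, 18 and 0 at 1, 3, 5 and 7 d against 0 d and 4 at 7 d against 5 d. The median of all genes at 3 d against 0 d was 0.12 as deposited and 0.004 with median-of-ratios scaling. For the single genes 66 outcomes, called or not called at 5 d against 0 d and at 7 d against 5 d, were compared. Of these, 64 with a pseudocount of 0.1 and 62 with that scaling were as before, including genes called in neither fit. The calls at 5 d against 0 d were 18 as before with the pseudocount of 0.1 and 16 with that scaling. At 7 d against 5 d the 6 calls became 4 with either. FPKM without counts give a single library no interval.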
